A study of Mus musculus with 2 samples.

Results

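Genes of DNA replication were followed in the ileal epithelium of mice, cell by cell and by genotype. A set of 40 genes was taken by symbol from the 27998 genes of the count matrices: helicase subunits, factors that load and fire origins, the sliding clamp and its loader, polymerases and primase, enzymes that finish the lagging strand, enzymes of nucleotide supply, the S phase regulators cyclin E, Dtl and Uhrf1, and the subunits of the chromatin assembly factor. All 40 were found, each once. The study compared 1 library from wild type (WT) mice with 1 library from TNFAIP8-/- mice, which it calls Tipe0-/-, both on a C57BL/6 background and 8 weeks old. The animals of both groups were undamaged, and the mutant group is labelled as homozygous null for the gene of TNFAIP8, a protein that binds phosphoinositides. Each library holds cells of 3 mice that cannot be told apart, so there is no replicate. Ileal epithelial cells, called enterocytes in the labels, were dissociated and captured in droplets, and each mRNA molecule was counted once by its unique molecular identifier (UMI).

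DNA is copied once per cell cycle, in S phase. In G1 phase Cdc6 and Cdt1 load the ring of Mcm proteins onto origins, and at the start of S phase Mcm10, Cdc45 and the GINS complex turn that ring into the active helicase. Polymerase alpha with primase lays the primers, replication factor C (the Rfc proteins) loads the Pcna clamp, polymerases delta and epsilon extend the new strands, and Fen1 and Lig1 join the fragments of the lagging strand. Many of these genes are transcribed as cells pass from G1 into S phase, under the control of E2F transcription factors. In the small intestine, replication takes place in the crypt, in stem cells and in the transit-amplifying cells above them, whereas enterocytes of the villus have left the cell cycle.

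The stretches just upstream of the transcription start are shown for a few members, since members are read here side by side and many genes of the set are known targets of E2F factors. RefSeq promoters (build GRCm38.p6, 250 bases before to 50 after each start) were found for 33 of the 40 members, with 39 promoters in all. Gins1, Gins2, Ccne2, Rfc2, Mcm4, Prim2 and Pole had no matched promoter and were not searched. The E2F words TTTCCCGC, TTTGGCGC, TTTGCCGC and TTTCGCGC, whose matches may overlap, were searched on both strands. At least 1 of them stood in 12 of the 39 promoters (30.8%), which belong to 12 members: Mcm3, Mcm5, Mcm6, Mcm7, Cdc6, Cdt1, Rfc3, Pola1, Pold1, Lig1, Dtl and Uhrf1. Of all 32851 mouse promoters of the same length, 2.26% held one. In the 200 bases before the start printed here, capitals mark the matching letters. Mcm6 (chr1:128359706-128359905, minus strand) has 3 matches, beginning 110, 106 and 47 bases before the start, the first 2 of them overlapping. Mcm5 (chr8:75109309-75109508, plus strand) has 2 overlapping matches, beginning 153 and 149 bases before the start. A single match is seen upstream of Mcm7 (chr5:138171884-138172083, minus strand), Cdc6 (chr11:98907951-98908150, plus strand), Dtl (chr1:191575545-191575744, minus strand) and the second of the starts of Uhrf1 (chr17:56304113-56304312, plus strand). Pcna (chr2:132253181-132253380, minus strand), the clamp gene, is shown as a member without any of these words in this window.
Mcm6: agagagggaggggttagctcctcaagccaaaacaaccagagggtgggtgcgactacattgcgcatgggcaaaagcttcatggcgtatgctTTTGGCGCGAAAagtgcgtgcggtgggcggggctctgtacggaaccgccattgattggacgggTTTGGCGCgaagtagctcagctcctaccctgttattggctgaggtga
Mcm5: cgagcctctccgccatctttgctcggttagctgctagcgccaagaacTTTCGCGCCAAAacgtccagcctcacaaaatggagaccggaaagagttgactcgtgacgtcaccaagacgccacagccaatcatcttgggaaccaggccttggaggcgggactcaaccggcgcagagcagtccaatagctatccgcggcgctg
Mcm7: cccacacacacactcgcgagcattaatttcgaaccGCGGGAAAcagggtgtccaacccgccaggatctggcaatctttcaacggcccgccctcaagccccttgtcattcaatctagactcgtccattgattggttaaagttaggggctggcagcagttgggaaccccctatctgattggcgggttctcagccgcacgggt
Cdc6: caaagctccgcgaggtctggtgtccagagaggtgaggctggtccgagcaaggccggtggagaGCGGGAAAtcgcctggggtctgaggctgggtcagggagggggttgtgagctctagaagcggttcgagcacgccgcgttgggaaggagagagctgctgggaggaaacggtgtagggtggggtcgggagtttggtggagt
Dtl: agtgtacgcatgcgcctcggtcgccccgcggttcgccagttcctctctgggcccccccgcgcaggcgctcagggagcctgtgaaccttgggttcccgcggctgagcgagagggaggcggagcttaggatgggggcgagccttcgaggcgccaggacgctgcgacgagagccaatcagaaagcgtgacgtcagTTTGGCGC
Uhrf1: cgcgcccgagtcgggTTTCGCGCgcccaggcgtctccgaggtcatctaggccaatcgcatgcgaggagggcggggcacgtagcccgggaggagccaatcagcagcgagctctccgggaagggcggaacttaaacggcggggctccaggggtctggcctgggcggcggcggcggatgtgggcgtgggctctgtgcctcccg
Pcna: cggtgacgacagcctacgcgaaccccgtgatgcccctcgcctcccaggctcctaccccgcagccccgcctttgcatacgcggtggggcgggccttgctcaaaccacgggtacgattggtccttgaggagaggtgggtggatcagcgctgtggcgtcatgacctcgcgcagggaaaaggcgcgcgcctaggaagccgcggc

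The WT library held 3402 cells and 38127808 UMIs and the TNFAIP8-/- library 2006 cells and 23897126 UMIs, with medians of 7760 and 7307.5 UMIs per cell. Tnfaip8 itself had 372 UMIs in the WT and 57 in the TNFAIP8-/- library, 9.76 and 2.39 per 1000000 UMIs of the library (CPM). The transcript was thus lower but not absent in the library labelled TNFAIP8-/-, and whether its counted 3' end lies in the deleted part was not examined. Mitochondrial genes took 6.59% and 8.56% of the UMIs, and 9 cell barcodes occurred in both libraries. Clustering without the members gave 14 clusters, named by marker genes that hold no member: stem-like, S-phase-like, mitotic-like, goblet-like, Paneth-like, tuft-like, enterocyte-like and lymphocyte-like classes, with 1 cluster, led by Lrg1, left unnamed. The S-phase-like cluster rested on 9 of 19 markers, the mitotic-like on 20 of 20, the stem-like on 13 of 14 and the tuft-like on 12 of 12, and cells labelled enterocytes thus included many other kinds. Intervals given below are 95% intervals for counting error only, since 1 library per genotype allows no test of the genotype. Counts come from 3' ends and depend on how well each transcript is captured, so levels are compared between cells and libraries, not between genes.

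Replication transcripts made up a larger share of the TNFAIP8-/- library. The 40 members together had 48824 UMIs in the WT library, 1281 CPM (1269 to 1292), and 38069 UMIs in the TNFAIP8-/- library, 1593 CPM (1577 to 1609). The log2 ratio of TNFAIP8-/- over WT was therefore 0.32 (0.30 to 0.33), or 1.24-fold. In such a sum, more cells that replicate and more transcripts per replicating cell cannot be told apart. The median log2 ratio of the 11665 genes with at least 50 UMIs was itself 0.15, so members are read against that shift. All 40 members reached 50 UMIs, with 501 to 6975 UMIs each, and all 40 had a ratio above 0, against 69.3% of all genes. Their median log2 ratio was 0.29. A gene was counted as higher when its ratio was at least 1.2 times the median ratio of all genes. By that rule 11 of the 40 members (27.5%) were higher, against 18.4% of all genes, and 0 were lower, against 19.9% of all genes. Here and below, the shares of all genes were not matched to the members in UMIs. They include genes near the minimum of 50 UMIs, whose ratios carry more counting error in both directions. The interval of 19 members lay wholly above the shift of 0.15 and that of 1 member, Rrm2, wholly below it. The same count over all genes is not given here, so these numbers only describe the members. The 11 were, in falling order, Ccne2, Pole, Pcna, Mcm6, Prim2, Dtl, Uhrf1, Mcm4, Mcm7, Gins1 and Pold1. Pold1, with a log2 ratio of 0.43, stood just inside the limit and Cdt1, with 0.36, just outside it.

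**Figure D1:**
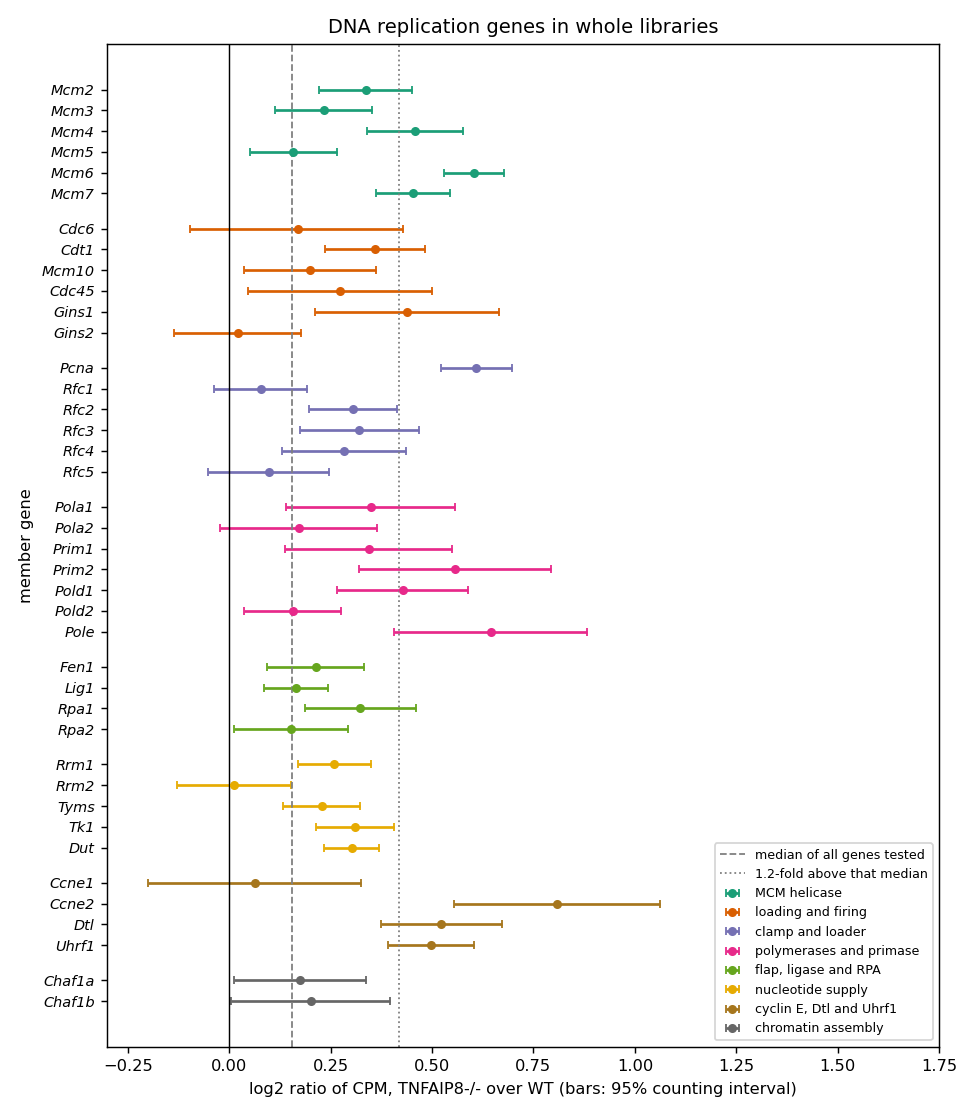
Log2 ratio of CPM, TNFAIP8-/- over WT, of each of the 40 members over whole libraries (x axis), grouped by role, with bars for the 95% counting interval. All points lie right of 0, where 69.3% of all genes also fell. Of the points 11 lie right of the dotted line that marks 1.2-fold above the median of all genes (dashed line, 0.15).

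The helicase subunits all lay at or above the shift, and 3 of 6 were higher. Mcm6 (mm10, GENCODE vM21, chr1:128331590-128359664) stood at 78.7 CPM (75.9 to 81.5) in the WT and 119.6 CPM (115 to 124) in the TNFAIP8-/- library, a log2 ratio of 0.60 (0.53 to 0.68). Mcm7 stood at 55.9 and 76.5 CPM, a log2 ratio of 0.45 (0.36 to 0.54). Mcm4 stood at 33.1 and 45.5 CPM, a log2 ratio of 0.46 (0.34 to 0.58). For none of these 3 did the CPM intervals of the libraries overlap. Mcm2 (36.3 and 45.8 CPM, log2 ratio 0.34), Mcm3 (34.7 and 40.8 CPM, 0.23) and Mcm5 (44.6 and 49.8 CPM, 0.16) lay between the shift and the limit, Mcm5 at the shift itself. Subunits of one ring thus differed in their ratio, with Mcm6 and Mcm5 at the ends and their intervals apart. Summed over the 6 genes the level was 283 CPM in the WT and 378 CPM in the TNFAIP8-/- library.

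Of the loading and firing factors only Gins1, a GINS subunit, was counted as higher, at 9.23 CPM in the WT and 12.5 CPM in the TNFAIP8-/- library (log2 ratio 0.44, 0.21 to 0.67). Cdt1, the loader that is degraded once S phase begins, stood at 31.4 and 40.3 CPM, a log2 ratio of 0.36 (0.24 to 0.48); its annotation overlaps Gm20388 on the same strand, so a part of its reads may be shared. Gins2, which encodes another subunit of the same complex, stood at 22.6 and 23.0 CPM, a log2 ratio of 0.02 (-0.14 to 0.18). Gins1 and Gins2 therefore did not move alike, and their intervals did not overlap. Gins3 and Gins4, which are not members, had log2 ratios of 0.20 (-0.22 to 0.60) and 0.13 (-0.07 to 0.33), overlapping both. Cdc6 (7.71 and 8.66 CPM), Mcm10 (19.6 and 22.6 CPM) and Cdc45 (9.84 and 11.9 CPM) had log2 ratios of 0.17, 0.20 and 0.27, each with an interval that held the shift.

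Among the clamp and loader genes the clamp stood apart from its loader. Pcna (chr2:132249162-132253314) stood at 56.1 CPM (53.8 to 58.6) in the WT and 85.6 CPM (81.9 to 89.4) in the TNFAIP8-/- library, a log2 ratio of 0.61 (0.52 to 0.70). The loader subunits had log2 ratios from 0.08 to 0.32: Rfc1, the large subunit, 40.8 and 43.1 CPM, Rfc2 41.0 CPM (39.0 to 43.1) and 50.7 CPM (47.9 to 53.6), Rfc3 22.8 and 28.5 CPM, Rfc4 21.1 and 25.7 CPM, and Rfc5 24.4 and 26.2 CPM. None of the loader genes was counted as higher, and no interval of theirs reached the lower bound of Pcna. Pcna is also used in DNA repair outside S phase.

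The polymerase and primase genes all lay above the shift. Pole, the catalytic subunit of polymerase epsilon, stood at 7.76 CPM in the WT and 12.1 CPM in the TNFAIP8-/- library (log2 ratio 0.64, 0.41 to 0.88), Prim2, the large primase subunit, at 8.08 and 11.9 CPM (0.56, 0.32 to 0.79), and Pold1, the catalytic subunit of polymerase delta, at 18.4 and 24.7 CPM (0.43, 0.27 to 0.59). The other 4, Pola1 (11.3 and 14.4 CPM), Pola2 (13.98 and 15.7 CPM), Prim1 (11.6 and 14.8 CPM) and Pold2 (37.1 and 41.3 CPM), had log2 ratios from 0.16 to 0.35. Both genes for catalytic polymerase subunits of the leading and lagging strand, Pole and Pold1, were thus among the 11, and the accessory subunits Pola2 and Pold2 lay at the shift.

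No gene of the next 2 groups was counted as higher. Lig1, the ligase that seals the lagging strand, stood at 83.2 CPM (80.3 to 86.1) and 93.2 CPM (89.4 to 97.2), a log2 ratio of 0.16, and Fen1, the flap nuclease, at 36.1 and 41.8 CPM, 0.21. Rpa1 and Rpa2 encode subunits of the protein that coats single-stranded DNA, and their log2 ratios were 0.32 and 0.15. The nucleotide enzymes were among the members with the most UMIs. Dut, which removes dUTP, stood at 103 CPM (100.01 to 106) in the WT and 127 CPM (123 to 132) in the TNFAIP8-/- library, a log2 ratio of 0.30. Rrm1, the large subunit of ribonucleotide reductase, stood at 60.6 CPM (58.1 to 63.1) and 72.5 CPM (69.1 to 76.0), Tyms, thymidylate synthase, at 56.4 CPM (54.0 to 58.8) and 66.0 CPM (62.8 to 69.4), and Tk1, thymidine kinase, at 52.9 CPM (50.6 to 55.3) and 65.7 CPM (62.4 to 69.0), with log2 ratios of 0.26, 0.23 and 0.31. Rrm2, the small subunit of the same reductase, stood at 28.4 and 28.6 CPM, a log2 ratio of 0.01 (-0.13 to 0.15). The subunits of ribonucleotide reductase therefore differed, Rrm1 lying above the shift and Rrm2 below it with intervals that did not overlap.

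The S phase regulators held the member with the highest ratio. Ccne2, cyclin E2, which activates Cdk2 at the entry to S phase, had 247 UMIs (6.48 CPM) in the WT and 271 UMIs (11.3 CPM) in the TNFAIP8-/- library, a log2 ratio of 0.81 (0.55 to 1.06). Its paralogue Ccne1 stood at 8.05 and 8.41 CPM, a log2 ratio of 0.06 (-0.20 to 0.32), so that of the cyclin E genes only Ccne2 was counted as higher. Dtl, the substrate receptor that targets Cdt1 for destruction, stood at 20.5 and 29.5 CPM (0.52, 0.37 to 0.67). Uhrf1, which keeps DNA methylation through replication, stood at 40.3 CPM (38.3 to 42.3) and 56.9 CPM (53.9 to 60.0), a log2 ratio of 0.50 (0.39 to 0.60). The chromatin assembly genes Chaf1a (19.8 and 22.4 CPM) and Chaf1b (13.5 and 15.6 CPM) had log2 ratios of 0.18 and 0.20, near the shift.

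Members were unevenly spread over the cell classes. Among the epithelial classes of the main clustering the S-phase-like, stem-like and mitotic-like cells came highest, in that order, and the enterocyte-like cells last in both libraries, while goblet-like and tuft-like cells changed places. Summed members stood at 3087 CPM (3019 to 3157) in S-phase-like cells of the WT and 3224 CPM (3136 to 3314) of the TNFAIP8-/- library. Stem-like cells had 2409 and 2441 CPM and mitotic-like cells 1867 and 2039 CPM. Enterocyte-like cells were lowest, with 173 and 223 CPM. Secretory classes lay between: goblet-like cells had 1539 and 1805 CPM, tuft-like cells 1490 and 2029 CPM and Paneth-like cells 557 and 869 CPM. A small enteroendocrine-like class, which was found only when another choice of variable genes was used for clustering, had 2017 CPM in 43 WT and 2000.3 CPM in 27 TNFAIP8-/- cells, a log2 ratio of -0.01 (-0.14 to 0.12) beside -0.01 for all genes. The stem-like, S-phase-like and mitotic-like classes together held 46.6% of all member UMIs of the WT and 45.5% of the TNFAIP8-/- library. Most of the goblet-like UMIs came from 1 cluster led by Spdef, Creb3l1 and Dll1, genes of the secretory lineage, which had 1852 and 2048 CPM and alone held 29.4% and 35.5% of the member UMIs. The other goblet-like clusters, led by Sval1 and by Ido1 with Zg16, had 149 to 342 CPM. Of the S-phase-like cluster, which was formed and named without members, 5 of the 10 leading genes were members: Ccne2, Dtl, Cdc6, Uhrf1 and Mcm4. Leading genes describe a cluster and test nothing.

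**Figure D2:**
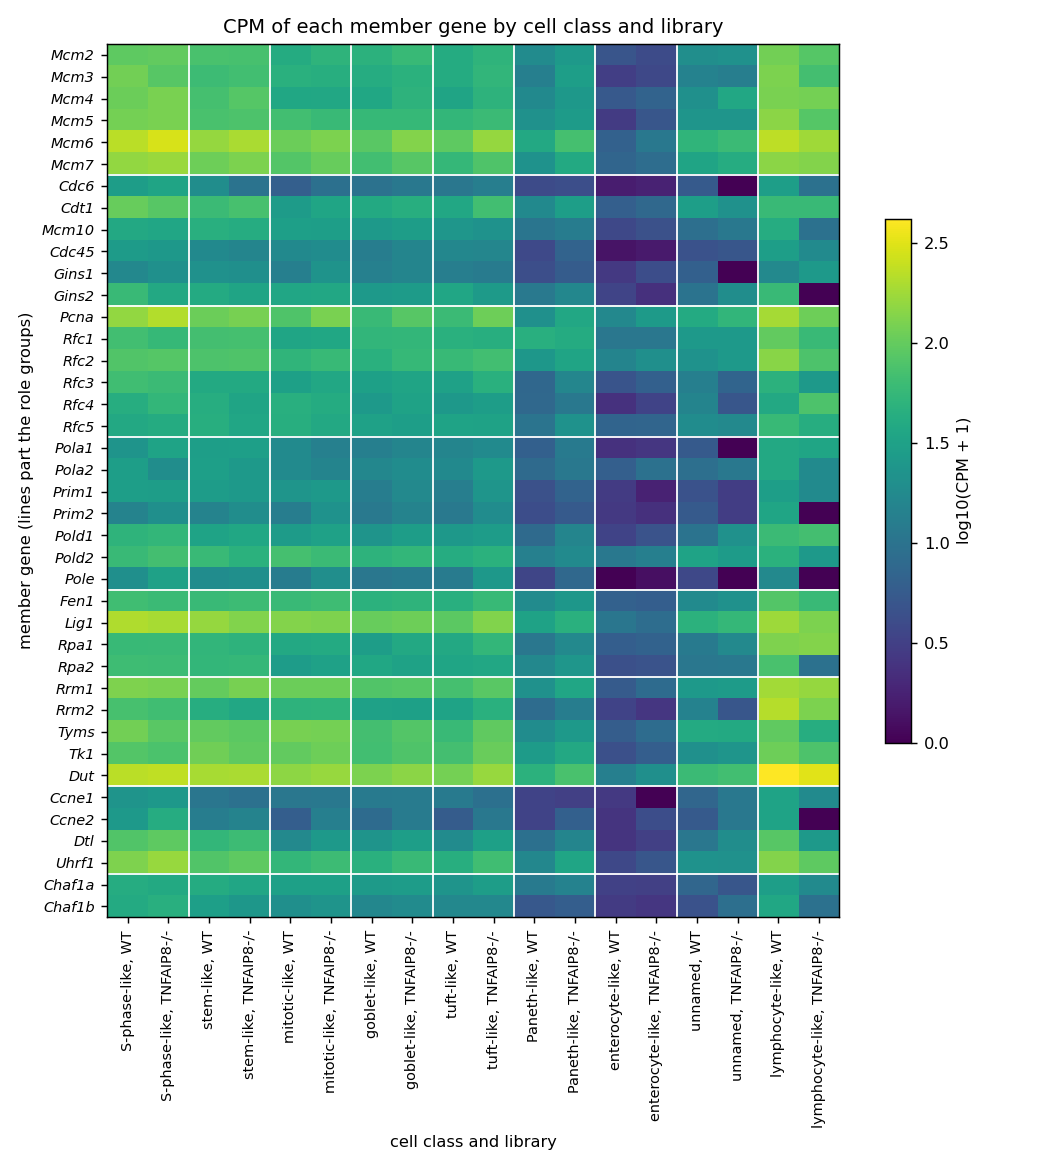
CPM of each member (rows, parted by role) in each cell class and library (columns), as log10(CPM + 1). Rows are to be read along their length: nearly every member is lower in the enterocyte-like than in the S-phase-like columns, and the lymphocyte-like columns at the right are bright in WT and duller in TNFAIP8-/-.

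Within the stem-like, S-phase-like and mitotic-like classes the summed members lay close to the median of all genes, below it in stem-like cells. In S-phase-like cells (343 WT and 249 TNFAIP8-/-) the log2 ratio of the summed members was 0.06 (0.01 to 0.11) beside a median of all genes in that class of 0.05; 9 of the 40 members were higher, against 23.9% of genes, and 6 lower, against 26.1%. In stem-like cells (306 and 259) it was 0.02 (-0.03 to 0.07) beside a median of all genes of 0.04; of the 39 members with at least 50 UMIs 1 was higher, against 20.6% of genes, and 9 were lower, against 20.5%. In mitotic-like cells (382 and 235) it was 0.13 (0.08 to 0.17) beside 0.07; of 39 members 7 were higher, against 20.5% of genes, and 4 were lower, against 19.7%. The share of members counted as higher in S-phase-like cells thus lay near that of all genes, and the share counted as lower was smaller than that of all genes. Without the 10% of cells richest in member UMIs, the S-phase-like ratio was 0.15 and the mitotic-like ratio 0.03.

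Ccne2, Pcna, Pole, Prim2 and Gins1 were counted as higher in both the S-phase-like and the mitotic-like class. In each class members were counted as higher no more often than all genes. The share of all genes higher in both was not computed, so the overlap is only described. Ccne2 stood at 24.8 CPM in WT and 41.3 CPM in TNFAIP8-/- S-phase-like cells (log2 ratio 0.74, 0.21 to 1.26) and at 5.04 and 12.4 CPM in mitotic-like cells (1.29, 0.51 to 2.11). Pcna stood at 154 and 207 CPM in S-phase-like cells (0.43, 0.21 to 0.64) and at 78.8 and 124 CPM in mitotic-like cells (0.65, 0.44 to 0.86). Pole stood at 19.2 and 30.5 CPM in S-phase-like cells (0.67, 0.06 to 1.28) and at 11.6 and 18.9 CPM in mitotic-like cells (0.71, 0.15 to 1.28). In stem-like cells Prim2 was the only member counted as higher. There Pcna had 107 and 120 CPM, Ccne2 11.8 and 13.9 CPM, and Pole 17.6 and 19.3 CPM. Members on the other side were Gins2 (58.7 and 37.5 CPM), Mcm3 (113 and 85.8 CPM) and Tyms (115 and 87.8 CPM), counted as lower in S-phase-like cells with log2 ratios of -0.64, -0.40 and -0.39 and intervals below 0. Cdc6 was lower in stem-like cells, at 18.4 CPM in WT and 8.89 CPM in TNFAIP8-/- (log2 ratio -1.03, -1.84 to -0.30), although it had 28.0 and 33.1 CPM in S-phase-like cells. Differences between classes in these ratios were not tested.

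In goblet-like and Paneth-like cells, each taken as a whole class, the summed members lay further above the median of all genes than in the stem-like, S-phase-like and mitotic-like classes. In goblet-like cells (746 WT and 513 TNFAIP8-/-) the log2 ratio of the summed members was 0.23 (0.20 to 0.26) beside a median of all genes of 0.10; 10 of 40 members were higher, against 18.3% of genes, and 1, Rpa2, was lower, against 19.1%. Mcm6 (88.4 and 134 CPM, log2 ratio 0.60), Pcna (59.1 and 86.5 CPM, 0.55) and Mcm4 (35.2 and 48.6 CPM, 0.47) were among the 10. In the Spdef-led cluster by itself the summed ratio was 0.15 (0.11 to 0.18) beside 0.08, with 4 of 40 members higher, against 17.6% of genes, and 2, Rpa2 and Rfc5, lower, against 18.7%. This cluster thus lay 0.07 above the median of all genes, near the 0.06 of mitotic-like cells. It held 14.2% of WT and 17.4% of TNFAIP8-/- cells. The Sval1-led and Ido1-led goblet-like clusters had summed ratios of 0.13 (-0.11 to 0.37) and -0.41 (-0.91 to 0.06). In Paneth-like cells (283 and 139) the summed ratio was 0.64 (0.57 to 0.71), but the median of all genes was 0.47; of the 31 members with at least 50 UMIs 12 were higher, against 21.6% of genes, and 1, Rfc1, was lower, against 21.2%. Mcm3 had 12.5 and 28.4 CPM in Paneth-like cells, a log2 ratio of 1.18, and Uhrf1 15.5 and 33.7 CPM, 1.12.

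Tuft-like cells showed the widest gap to all genes among the epithelial classes. In 158 WT and 52 TNFAIP8-/- cells the log2 ratio of the summed members was 0.45 (0.37 to 0.53), while the median of all genes was 0.01. Of the 33 members with at least 50 UMIs in this class, 22 were higher, against 24.3% of genes, and 1, Gins2, was lower, against 24.6%. Cdt1 stood at 36.1 and 66.1 CPM (log2 ratio 0.88, 0.39 to 1.36), Pcna at 60.7 and 108 CPM (0.83, 0.46 to 1.21) and Mcm6 at 91.6 and 158 CPM (0.79, 0.48 to 1.10). When all cells were brought down to 3000 UMIs by random draws, 42.4% of the tuft-like cells of the WT and 44.2% of those of the TNFAIP8-/- library had 5 or more member UMIs, shares that differed by less than their intervals (34.6% to 50.5% and 30.5% to 58.7%). The median depth of these cells was 12011.5 UMIs in the WT and 17249.5 in the TNFAIP8-/- library. Without the cells of the highest doublet scores, 139 and 41 remained and the summed ratio was 0.33 (0.24 to 0.42). The median of the 30 members with at least 50 UMIs was then 0.27, beside a median of all genes of 0.004. The part of depth and of doublets in this gap was not tested further.

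**Figure D3:**
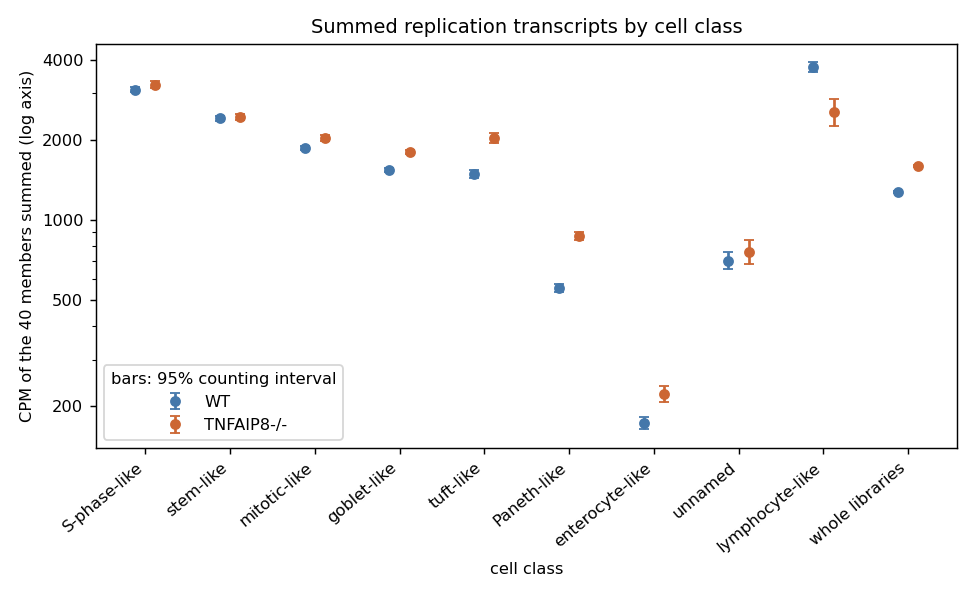
CPM of the 40 members summed (y axis, log scale) in each cell class and in whole libraries, for the WT and the TNFAIP8-/- library, with bars for the 95% counting interval. TNFAIP8-/- points lie above WT points in each of the epithelial classes drawn that have a name, from 3087 against 3224 CPM in S-phase-like cells to 173 against 223 CPM in enterocyte-like cells, and below them in lymphocyte-like cells.

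Lymphocyte-like cells went the other way. They had the highest summed level of any class in the WT library, 3747 CPM (3589 to 3910) in 103 cells, and 2537 CPM (2259 to 2840) in the 22 cells of the TNFAIP8-/- library, a log2 ratio of -0.56 (-0.74 to -0.39). Dut, for example, stood at 416 and 319 CPM there and Rrm2 at 211 and 126 CPM. Cells with B cell markers only had 4652 CPM in 41 WT and 3453 CPM in 9 TNFAIP8-/- cells, and cells with T cell markers only had 4066 CPM in 34 and 2557 CPM in 6 cells. These cells are no epithelium, and they made up 3.03% of WT and 1.10% of TNFAIP8-/- cells. Over whole libraries, the 11 T cell markers summed to 212 and 51.9 CPM and the 10 B cell markers to 2029 and 818 CPM, with all markers detected in both libraries. The B cell list includes Cd74 and H2-Aa, genes of MHC class II that other cells can also express. Its sum over all cells is therefore no measure of B cells or of their share. Without the lymphocyte-like cluster the summed log2 ratio of the members was 0.35 (0.33 to 0.37), higher than with it, beside a median of all genes of 0.16.

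The libraries also differed in how many cells fell in each class. Stem-like cells were 8.99% (8.05% to 10.0%) of WT and 12.9% (11.5% to 14.5%) of TNFAIP8-/- cells, S-phase-like cells 10.1% (9.09% to 11.1%) and 12.4% (11.0% to 13.9%), and mitotic-like cells 11.2% and 11.7%. Together these classes made up 30.3% of WT and 37.0% of TNFAIP8-/- cells. Enterocyte-like cells were 27.4% and 22.9%. To set this aside, both libraries were weighted to one makeup of the 8 named classes by UMIs. The summed members then stood at 1342 and 1531 CPM, a log2 ratio of 0.19, in place of 0.32. The median log2 ratio of the members was 0.17, beside a median of all genes of 0.13. Of the 40 members 5 were higher, namely Ccne2, Pcna, Pole, Mcm6 and Prim2, a smaller share than the 16.7% of all genes. None of the members was lower, against 18.2% of all genes. With the classes weighted alike, 22 of the 40 members lay above the median of all genes, in place of 34.

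Within enterocyte-like cells the members were scarce. The class had 1410 member UMIs in 931 WT cells and 836 in 459 TNFAIP8-/- cells, a log2 ratio of 0.36 (0.24 to 0.49) beside 0.14 for all genes. Different clusters made up the class in the libraries: the cluster led by U90926 and Saa1 held 390 WT and 69 TNFAIP8-/- cells, and that led by Apoa4 and Clca4a held 52 and 155. In the former, members had 149 and 293 CPM, in the latter 137 and 172 CPM, in the Slc40a1-led cluster 239 and 262 CPM and in the Arg2-led cluster 111 and 148 CPM. The Slc40a1-led cluster had the weakest marker support of the class, 4 of 15. It held 690 of the 1410 WT and 375 of the 836 TNFAIP8-/- member UMIs. In the U90926-led cluster the richest 7 of the 69 TNFAIP8-/- cells carried 67.0% of its member UMIs, and without the richest 10% in each library its levels were 94.7 and 114 CPM.

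Members differed in how far they fell outside the cycling cells. Of the S-phase-like level, enterocyte-like cells of the WT kept 18.4% for Pola2, 17.9% for Rfc2, 17.3% for Pold2, 16.2% for Rfc5 and 14.9% for Rfc1, and in TNFAIP8-/- cells these shares were 46.2%, 22.8%, 18.4%, 15.3% and 17.6%. In the WT library these members with the smallest drop encode subunits of the clamp loader and of polymerases. Other subunits of the same complexes fell further in the WT: Rfc3 kept 5.95%, Rfc4 3.22%, Pola1 6.26% and Pold1 4.75%. The small drop was thus no trait of these complexes as a whole. At the other end, Mcm5 kept 1.57% and 3.26%, Mcm3 1.84% and 3.10%, Dtl 1.85% and 2.28%, Uhrf1 2.08% and 2.45%, and Cdc45 1.40% and 2.20%. Pole had 0 UMIs in WT and 1 UMI in TNFAIP8-/- enterocyte-like cells, Cdc45 3 and 2, and Ccne1 14 and 0, so their shares rest on few molecules. The 46.2% of Pola2 rests on 32 UMIs in TNFAIP8-/- enterocyte-like cells. Its S-phase-like level was also lower there, at 28.8 CPM in WT and 18.4 CPM in TNFAIP8-/- cells. No intervals are given for these shares.

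Members also differed in how sharply they separated S-phase-like from mitotic-like cells. In the WT library Cdc6 was highest, with a log2 ratio of S-phase-like over mitotic-like CPM of 2.39 (1.73 to 3.13), followed by Dtl with 2.31, Ccne2 with 2.28, Cdt1 with 1.95 and Mcm4 with 1.59. In the TNFAIP8-/- library the same genes had 1.99, 1.91, 1.73, 1.36 and 1.755. These include loading factors and the regulators that act before or at the start of S phase. Tk1 lay on the mitotic side in both libraries (-0.22, -0.46 to 0.02 in the WT and -0.55, -0.88 to -0.24 in TNFAIP8-/-), as did Tyms (-0.06, -0.27 to 0.15, and -0.40, -0.70 to -0.12), and Fen1 (0.13 and -0.05), Rrm1 (0.28 and 0.19) and Rfc5 (-0.20 and 0.13) differed little between the classes. The interval lay above 0 in both libraries for 23 of the 40 members and below 0 in both for 0. The share of all genes is not given here, and the classes were themselves named by S phase and mitosis markers. These counts therefore only describe the members. Across the 40 genes, which are not independent of one another and share the same cells, the ratios of the libraries had a Pearson correlation of 0.88 and a Spearman correlation of 0.87. The libraries were clustered together, so the classes were defined alike in both, and no correlation over all genes is given beside these values. Pola1 had the widest difference, 0.36 (-0.17 to 0.87) in the WT and 1.34 (0.71 to 2.0) in the TNFAIP8-/- library, with overlapping intervals. Median depth differed as well, at 5030 and 4516 UMIs in S-phase-like and 10286.5 and 7887 in mitotic-like cells.

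**Figure D4:**
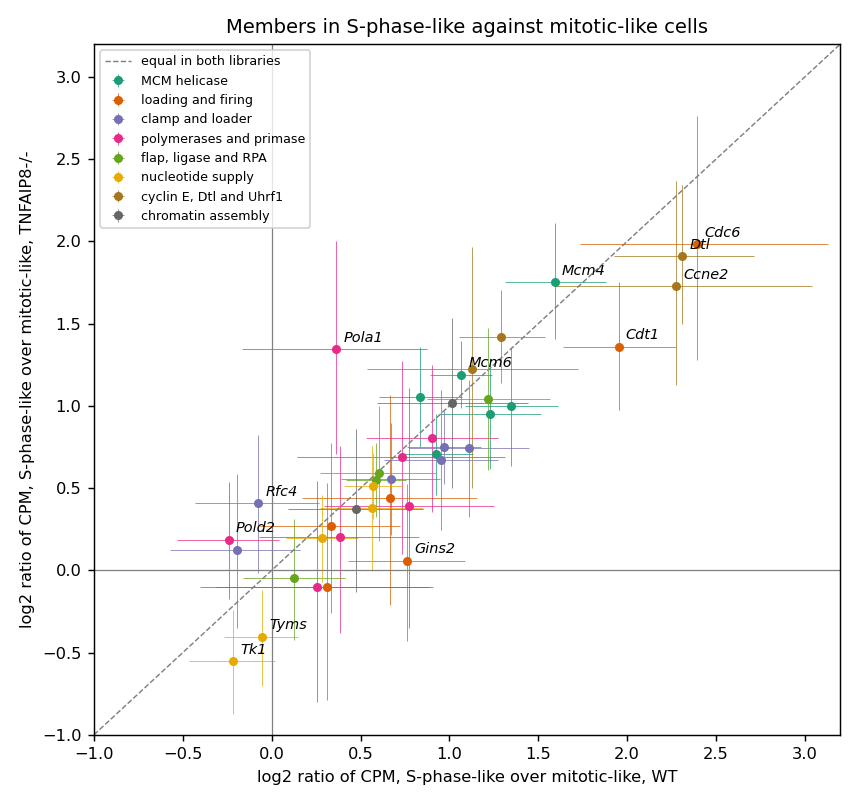
Log2 ratio of CPM in S-phase-like over mitotic-like cells for each member, in the WT (x axis) and the TNFAIP8-/- library (y axis), coloured by role, with lines for the 95% counting interval. Cdc6, Dtl and Ccne2 lie at the upper right, Tk1 and Tyms at the lower left, and most members lie near the dashed line of equal values.

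Counted per cell, more cells of the TNFAIP8-/- library carried many replication transcripts. With every cell thinned to 3000 UMIs, which no cell fell short of, 1166 of 3402 WT cells, 34.3% (32.7% to 35.9%), and 818 of 2006 TNFAIP8-/- cells, 40.8% (38.6% to 43.0%), had 5 or more member UMIs. The difference was 6.504 percentage points (3.80 to 9.21), and it was 6.48 points (54.9% and 61.4%) without thinning. These shares were not corrected for the shift of all genes between the libraries, so its part in the difference was not tested. Without the lymphocyte-like cells the shares were 32.7% and 40.6%. Enterocyte-like cells, which should lack these transcripts where they are mature, gave a background of 0.644% and 1.74%, at median depths of 6458 and 5673 UMIs. The cut runs through a range rather than between separate kinds of cell, since 5.26% of WT and 5.73% of TNFAIP8-/- cells had 4 member UMIs and 5.53% and 6.93% had 5. Among cells with 5 or more, the mean was 9.15 member UMIs in the WT and 9.32 in the TNFAIP8-/- library.

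**Figure D5:**
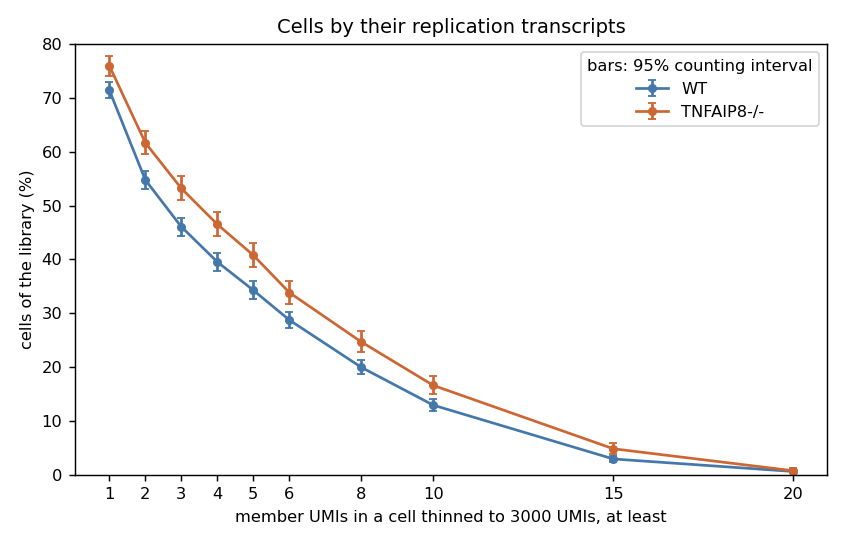
Share of cells with at least a given number of member UMIs, after thinning each cell to 3000 UMIs, in the WT and the TNFAIP8-/- library, with bars for the 95% counting interval. The TNFAIP8-/- line runs above the WT line, with intervals that stay apart up to 15 member UMIs and overlap at 20.

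These cells were spread over several classes. In the WT library S-phase-like cells led, with 288 against 255 goblet-like cells. In the TNFAIP8-/- library goblet-like and S-phase-like cells were nearly equal in number, at 219 and 214. Of the WT cells with 5 or more member UMIs 24.7% were S-phase-like, 21.9% goblet-like, 17.2% mitotic-like and 17.0% stem-like, and of those of the TNFAIP8-/- library 26.2%, 26.8%, 14.3% and 22.4%. Lymphocyte-like cells were 7.55% and 1.59% of them and tuft-like cells 5.75% and 2.81%. The share within a class was 84.0% and 85.9% in S-phase-like cells, 64.7% and 70.7% in stem-like cells, 52.6% and 49.8% in mitotic-like cells and 34.2% and 42.7% in goblet-like cells. Only in goblet-like cells did the intervals of the libraries (30.8% to 37.7% and 38.4% to 47.1%) stay apart among these 4 classes. Nearly all of these goblet-like cells, 246 of 255 in the WT and 216 of 219 in the TNFAIP8-/- library, belonged to the Spdef-led cluster. Its shares were 50.9% (46.4% to 55.5%) and 61.9% (56.6% to 67.0%), so the goblet-like values say little about the other goblet-like clusters. Cells with 5 or more member UMIs that also had 3 or more UMIs of mitosis markers were 67.2% in the WT and 58.8% in the TNFAIP8-/- library. Single members showed the same order in thinned cells: a UMI of Mcm6 was found in 19.3% of WT and 24.7% of TNFAIP8-/- cells, of Pcna in 16.1% and 21.0%, of Uhrf1 in 11.0% and 15.7%, of Dtl in 6.70% and 10.0%, but of Lig1 in 18.5% and 19.6%. In enterocyte-like cells the same shares were 1.83% and 2.18% for Mcm6, 4.73% and 8.50% for Pcna and 3.33% and 3.05% for Lig1, so those of Pcna are the least free of background.

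Other genes of the replication machinery, listed by function and apart from the members, lay on both sides of 0. Of 47 such genes, origin recognition subunits, further helicase and fork factors and nucleotide enzymes among them, 19 were higher and 4 lower, against the 18.4% and 19.9% of all genes, and their median log2 ratio was 0.36. Those with the highest ratios among genes with at least 200 UMIs were Dctd, which makes dUMP (7.90 and 13.3 CPM, log2 ratio 0.75), Orc5, an origin recognition subunit (6.90 and 11.5 CPM, 0.74) and Rpa3, the small subunit of the single-strand binding protein (74.6 and 117 CPM, 0.64). The lowest were Pold4, an accessory polymerase delta subunit (17.5 and 11.9 CPM, -0.56), Samhd1, which breaks down deoxynucleotides (34.1 and 26.7 CPM, -0.35) and Rnaseh2c, a subunit of ribonuclease H (121 and 103 CPM, -0.23). Of 29 genes that control the entry into S phase, 28 reached 50 UMIs, 11 were higher and 3 lower, against the same shares of all genes, with a median of 0.24. Myc, a driver of growth, had the highest ratio (20.1 and 44.0 CPM, log2 ratio 1.13), followed by Cdk2, the kinase partner of cyclin E (11.0 and 19.4 CPM, 0.82) and Fbxo5, an inhibitor of the anaphase-promoting complex (14.7 and 23.6 CPM, 0.69). Among genes with at least 200 UMIs the lowest were Cdkn1a, the kinase inhibitor p21 (119 and 90.3 CPM, -0.40), Ccnd3, cyclin D3 (20.5 and 15.7 CPM, -0.39) and Fzr1, an activator of the anaphase-promoting complex (29.2 and 28.7 CPM, -0.03). Fzr1 was not counted as lower, and the third gene so counted was the kinase inhibitor Cdkn1c, with 83 and 36 UMIs (-0.52, -1.14 to 0.05). Kinase inhibitors lay on both sides, since Cdkn1b (0.53) and Cdkn2c (0.64) were among the 11 higher. Under one class makeup Myc and Cdk2 stood at 0.94 and 0.70 and Cdkn1a at -0.19. The 20 markers of mitosis, by comparison, summed to 1235 and 1286 CPM, a log2 ratio of 0.06, with a median of 0.04 that lay below the shift. Markers of S phase and of stem cells were higher as well. The 19 S phase markers summed to 588 and 766 CPM, a log2 ratio of 0.38 with 8 higher and 0 lower. The 14 stem cell markers summed to 625 and 923 CPM, a log2 ratio of 0.56 with 11 higher and 1 lower. Both stand against the same 18.4% and 19.9% of all genes. Some were counted above already: Hells, Dnmt1, Clspn, Tipin, E2f8 and Gmnn for S phase and Cdk6 for stem cells. The part of these markers in the members' ratios was not tested.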

How the data were processed

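Single-cell RNA-Seq counts were analysed from 1 WT and 1 TNFAIP8-/- library of ileal epithelial cells, each with cells of 3 mice. The deposited count matrices, made by the authors with Cell Ranger from droplet 3' libraries aligned to mm10, were read as raw UMI counts per gene and cell. The study's methods also describe a normalization by read depth when the libraries were aggregated. Whether it was applied before deposit is not known. The labels name collagenase and dispase for digestion, and the study's methods name DNase and dispase. The files were used as deposited, and 0 columns of values were left unused.

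The 40 members were found by symbol. Members and gene lists were chosen with earlier results of these data known. Cells were clustered with Seurat 5.3.0 (R 4.3.3; 14 principal components, resolution 0.8) on 527 variable genes, without the members and without 50 genes of the study's genotype comparison, and clusters were named by marker lists that hold no member. Doublet scores came from Scrublet in Scanpy 1.11.5, whose call marked 15 WT and 3 TNFAIP8-/- cells and so did not work, and no doublets were removed. UMIs were summed per library and class with Python 3.11.15, numpy 2.4.6, scipy 1.17.1 and pandas 2.3.3, and figures were drawn with matplotlib 3.10.9. Levels are UMIs per 1000000 UMIs of the library or class (CPM) with exact 95% Poisson intervals, ratios have exact binomial intervals with a prior of 0.5 UMIs for the ratio itself, and shares have Clopper-Pearson intervals. There was no test, since cells are not replicates. A gene entered the comparison when its UMIs over the libraries came to 50 or more, and it was called at 1.2-fold from the median ratio of all of them. Every member is named, with intervals for the 10 members of at least 50 CPM in either library, and of each of 2 further lists the 3 genes with the highest and the 3 with the lowest ratios among those with at least 200 UMIs. Gins3 and Gins4 of these lists were named beside the other GINS genes after their values were seen, and so were Cdkn1b, Cdkn1c and Cdkn2c beside Cdkn1a. Further member and class values shown within classes were chosen after their values were seen. For shares of cells, each cell was thinned to 3000 UMIs. The computation of ratios and intervals was checked on simulated data. Alternatives varied the totals, scaling, weighting, filter, fold, clusters, cells and cut-offs.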

Additional observations from a re-analysis of the deposited data

Results flagged for a closer look

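The summed members had a log2 ratio of TNFAIP8-/- over WT of -0.56 (-0.74 to -0.39) in lymphocyte-like cells, while the named epithelial classes of the same clustering had ratios above 0, from 0.02 in stem-like to 0.64 in Paneth-like cells. The value drew attention because its sign is opposite to that of those classes, and the difference was not tested. The enteroendocrine-like class of another clustering had a ratio of -0.01 (-0.14 to 0.12). The lymphocyte-like value rests on 103 WT and 22 TNFAIP8-/- cells. It was -0.53 without the cells of the highest doublet scores and -0.60 without the 10% of its cells richest in member UMIs. Cells with B cell markers made up 41 and 9 and cells with T cell markers 34 and 6 of this class, and their part in the ratio was not tested.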

How the results depend on the processing

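The summed log2 ratio of 0.32 over whole libraries was 0.29 without the cells of the highest doublet scores, 0.35 without the lymphocyte-like cluster, 0.28 without the enterocyte-like clusters that are mostly of 1 library (chosen after seeing the data), 0.26 with totals that leave out mitochondrial and the 20 most abundant genes, 0.22 with equal weight per cell and 0.16 with libraries scaled by the median ratio, which by construction removes the shift of all genes. The members' median ratio under that scaling was 0.14. For the alternatives before the scaling, the median of all genes is not given in this section. Their values therefore do not show how far the members lay above it. The number of members at least 1.2-fold higher was 7 with equal weight per cell, against 19.8% of genes, and 1 at 1.5-fold, against 4.23% of genes. Under the other alternatives it was 9 to 11, to be read against the share of all genes in each, which is not given here. At 10 or more member UMIs the difference in the share of cells was 3.67 percentage points, and it was 4.86 to 7.90 points otherwise. With one class makeup the members' median was 0.13 to 0.18 and lay from 0.02 below the median of all genes (finer clusters, -0.02) to 0.07 above it, and in S-phase-like cells it was 0.06 to 0.15. Clusters on 2000 genes chosen by the vst method gave no S-phase-like class and so no value there. Weighting the 14 clusters, the class values without doublets and those without the richest cells were also chosen after seeing the data. The cause of these shifts was not tested, except for the scaling. No paired analysis was possible because each genotype has a single library. At this depth 20 of the 40 members, Cdc6 with 501 UMIs among them, have intervals that hold the shift, and with 1 library per genotype no alternative speaks to the spread between animals.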
